A study of Mus musculus with 72 samples.

Results

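The regions described here are the 500 H3K27ac domains of mouse embryonic fibroblasts (MEFs) with the most acetylated sequence. H3K27ac peaks of WT replicate 1 on chromosomes 1 to 19 were kept when they overlapped a peak of WT replicate 2 by 1 bp or more, which left 64460 of 83065 peaks. Kept peaks lying 12.5 kb or less apart were stitched into 20039 domains, and the 500 domains with the most base pairs covered by these peaks were taken, 2.50% of all domains. They span 25.9 Mb, hold 16.1% of the kept peaks and 22.1% of the base pairs under them, and cover 1.05% of the autosomes. ChIP-seq had been done in WT (Hmgn1+/+n2+/+) and DKO (Hmgn1-/- n2-/-) C57BL/6 MEFs. The DKO cells came from mice without the nucleosome-binding proteins HMGN1 and HMGN2, and all cells were cultured and fixed with formaldehyde. Chromatin of each genotype was precipitated with antibodies to H3K27ac, p300, Brd3 and CEBPB in 2 biological replicates, so each antibody has 4 libraries and each library 1 deposited list of peaks. The labels do not say whether replicates came from separate embryos, so the spread between them may be partly technical.

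H3K27ac, acetylation of lysine 27 on histone H3, marks active promoters and enhancers, and long runs of acetylated sites are usually found at genes that characterise a cell type. p300 is one of the acetyltransferases that place this mark, Brd3 is a bromodomain protein that binds acetylated histones, and CEBPB is a leucine zipper transcription factor of the C/EBP family. HMGN1 and HMGN2 bind nucleosomes without a preferred DNA sequence.

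Peaks of p300, Brd3 and CEBPB within the domains were merged into sites where libraries overlapped. For each antibody, the strongest site that all 4 libraries called and the strongest site that both WT and no DKO library called are shown, since these are the ends of the range that the comparison of genotypes turns on. Each sequence is the plus strand of mm9, 50 bases either side of the WT replicate 1 summit, with any AP-1 motif (TGACTCA on either strand) or C/EBP motif (TTGCNNAA on either strand) in capitals.
p300, kept, chr11:86437915-86438015, intron of Vmp1: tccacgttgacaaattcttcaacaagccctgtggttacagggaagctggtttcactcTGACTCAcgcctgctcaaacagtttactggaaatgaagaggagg
p300, not called in DKO, chr5:143797973-143798073, intron of Rnf216: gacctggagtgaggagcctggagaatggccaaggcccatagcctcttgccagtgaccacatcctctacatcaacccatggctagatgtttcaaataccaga
Brd3, kept, chr19:9041765-9041865, intron of Eef1g: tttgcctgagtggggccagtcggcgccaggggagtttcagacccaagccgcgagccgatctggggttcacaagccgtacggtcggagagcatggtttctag
Brd3, not called in DKO, chr11:86382169-86382269, between genes: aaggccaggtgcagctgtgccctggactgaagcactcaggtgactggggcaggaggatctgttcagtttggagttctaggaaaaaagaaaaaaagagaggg
CEBPB, kept, chr17:44846960-44847060, intron of Runx2: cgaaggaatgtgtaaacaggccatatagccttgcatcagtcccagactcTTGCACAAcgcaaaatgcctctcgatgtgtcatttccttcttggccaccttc
CEBPB, not called in DKO, chr5:115941796-115941896, between genes, 7112 bp from the start of Sirt4: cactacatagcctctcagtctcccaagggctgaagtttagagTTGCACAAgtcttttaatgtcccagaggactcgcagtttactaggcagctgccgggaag

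The CEBPB summit in Runx2, a gene for a bone-lineage transcription factor, was by this choice the strongest CEBPB site called in all 4 libraries. Its fold enrichment over background was 62.5 and 66.9 in WT against 12.9 and 18.5 in the DKO libraries. The sites shown were chosen for high WT values, so lower DKO values at them do not by themselves show a difference between genotypes. The CEBPB summit near Sirt4 and Pxn was 29.0-fold and 32.7-fold enriched in the WT libraries and was in neither DKO list. The p300 summit in Vmp1 had fold enrichments of 28.9 and 32.8 in WT against of 13.4 and 15.3 in DKO cells. The Brd3 summit 284 bp from the start of Eef1g, a translation elongation factor gene, reached 25.4 and 30.9 in WT against 17.2 and 10.1 in DKO cells.

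The 2 motifs divided the antibodies. Of the 743 CEBPB sites of the domains called in both WT libraries, 307 (41.3%) held TTGCNNAA within the 101 bases, against 3.10% of windows of the same length 5000 bp away. Of the 705 p300 sites called in both WT libraries, 177 (25.1%) held TGACTCA, against 3.26% of the windows 5000 bp away, while TTGCNNAA was in 3.83%. Brd3 sites held either motif about as rarely as the distant windows, with 3.19% for TTGCNNAA (4.67% in distant windows) and 2.16% for TGACTCA (1.92%) among 3702 sites. Over the autosomes as a whole, the shares were 48.5% of 11842 CEBPB sites for TTGCNNAA and 28.5% of 4117 p300 sites for TGACTCA, both above those in the domains. Among CEBPB sites of the domains, TTGCNNAA was in 128 of 259 (49.4%) sites called in all 4 libraries and in 152 of 415 (36.6%) sites called in no DKO library, and TGACTCA was in 9.27% and 9.64%. Over all autosomal CEBPB sites, TTGCNNAA was in 55.0% of those called in all 4 libraries and in 44.0% of those called in no DKO library, and TGACTCA in 14.6% and 8.28%. Among p300 sites, TGACTCA was in 25.8% of the 368 kept in both DKO libraries and in 24.5% of the 188 called in none. These shares are descriptions and were not tested.

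The domains had between 10936 and 102064 acetylated base pairs, with a median of 15831.5 bp, and between 4 and 91 kept peaks, with a median of 18. Their lengths from first to last peak ran from 11725 to 205845 bp. The last domains inside the limit had 10939 bp (chr10:59359261-59387389, nearest start Dnajb12) and 10936 bp (chr11:102145689-102182512, with the starts of Tmub2, Atxn7l3 and Ubtf). The first outside had 10924 bp (at Flad1, Cks1b, Shc1, Pygo2 and Pbxip1) and 10914 bp (at Ahcyl1), so the limit of 500 does not fall at a gap in size.

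Of the gene lists examined, those of the actin cytoskeleton, the Hox genes, the extracellular matrix and fibroblast markers had the largest shares of members starting in a domain. Of the 500 domains, 376 (75.2%) held the start of at least 1 protein-coding gene, against 35.7% of the other domains, and 696 of 21275 autosomal genes (3.27%) started in them. Of 16 fibroblast markers, 9 started in a domain: the collagen genes Col1a1, Col1a2 and Col3a1, fibronectin (Fn1), vimentin (Vim), the platelet-derived growth factor receptor Pdgfrb, the transcription factors Twist2 and Prrx1, and fibrillin 1 (Fbn1). None of 38 markers of embryonic stem, B, endothelial, epithelial, skeletal muscle and neuronal cells and macrophages did. Among genes of the actin cytoskeleton 15 of 23 (65.2%) started in a domain, among extracellular matrix genes 16 of 28 (57.1%), among TGF-beta and YAP response genes 11 of 20 (55.0%) and among Hox genes 15 of 24 (62.5%, in 3 domains). AP-1 genes followed with 4 of 12 (Fosb, Fosl1, Fosl2 and Junb), mesenchymal transcription factor genes with 7 of 30 and growth factor and cytokine genes with 4 of 20. No C/EBP gene of 6 started in a domain, nor did any of 13 genes for H3K27ac writers and readers and HMGN proteins. Of the 124 domains without a protein-coding start, 72 touched a gene body and 52 lay between genes, and their median distance to the nearest start was 39509 bp. Some of these held the start of a small RNA, such as the third largest domain with Mir21 and the domain of rank 21 with Mir29a and Mir29b-1.

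Over the whole series, lists of the 4 antibodies held between 2937 (p300, DKO) and 83065 (H3K27ac, WT) autosomal peaks. The deposited lists give no read counts. For H3K27ac, p300 and Brd3, the enrichment and p-value of peaks with a −log10 p below 40 together gave a pileup in whole reads for at least 99.9985% of them in each library, to within 0.001 of −log10 p, and the lowest background found this way served as a measure of depth. It was 1.64 and 1.44 for H3K27ac in WT and 1.77 and 1.87 in DKO, 1.58 and 1.15 against 1.22 and 1.27 for p300, and 1.75 and 1.89 against 1.24 and 1.54 for Brd3. The DKO libraries were therefore shallower for Brd3 and deeper for H3K27ac, and WT replicate 1 was the deepest for p300. The depth of the CEBPB libraries is unknown. Neither targeted gene lies in one of the 500 domains. At Hmgn2 there were 3 and 3 H3K27ac peaks within 1000 bp of the gene in WT against 0 and 0 in the DKO libraries, whereas at Hmgn1 there were 2 and 2 in WT against 4 and 5 in DKO libraries, a measure of acetylation and not of the protein.

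H3K27ac covered nearly as much of the domains in DKO as in WT cells. Peaks covered 10487 and 10021 kb of the 500 domains in the WT libraries and 9891 and 10205 kb in the DKO libraries, so that DKO coverage was 98.0% of WT coverage. The 2 genotypes overlapped, since WT replicate 2 lay below DKO replicate 2. Peaks numbered 12497 and 12746 in WT against 11267 and 11175 in DKO libraries, and the median peak was 467 and 441.5 bp wide in WT and 478 and 501 bp wide in DKO cells. DKO cells thus had fewer and wider H3K27ac peaks in the domains, and the same held over all autosomes. There peaks numbered 83065 and 82833 in WT against 75158 and 75731 in DKO libraries. Their median widths were 384 and 370 bp in WT against 401 and 413 bp in DKO libraries. Both DKO libraries were the deeper ones, and no correction for depth was made for H3K27ac. Both DKO libraries covered fewer base pairs than both WT libraries in 217 of the 500 domains (43.4%, and 42.9% of all 20039 domains) and more in 139 (27.8%, and 11.4% of all domains). In number of peaks they lay below in 210 (23.9% of all domains) and above in 26 (2.4% of all domains). The domains were chosen on WT H3K27ac, so these values are a description and carry no test, and with domains defined in the DKO libraries the DKO coverage was 106% of WT.

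The changes of single domains went both ways. On the log2(covered bp + 200) scale, the difference DKO minus WT had a median of -0.05 over the 500 domains and ran from -1.44 to 0.74. The domain at Col4a1 and Col4a2, collagens of the basement membrane, had 49111 and 45094 bp in WT against 57461 and 62581 bp in DKO cells. The domain at Fgf7, a fibroblast growth factor that acts on epithelia, had 18617 and 18899 bp in WT against 9059 and 9882 bp in DKO cells. Chosen after their values were seen, the lowest and the highest difference were at Lama5, a laminin chain gene, with 13060 and 12730 bp against 4876 and 4383 bp, and in a domain whose nearest start is Pdzrn3, with 19537 and 17085 bp against 29290 and 32097 bp.

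**Figure D1:**
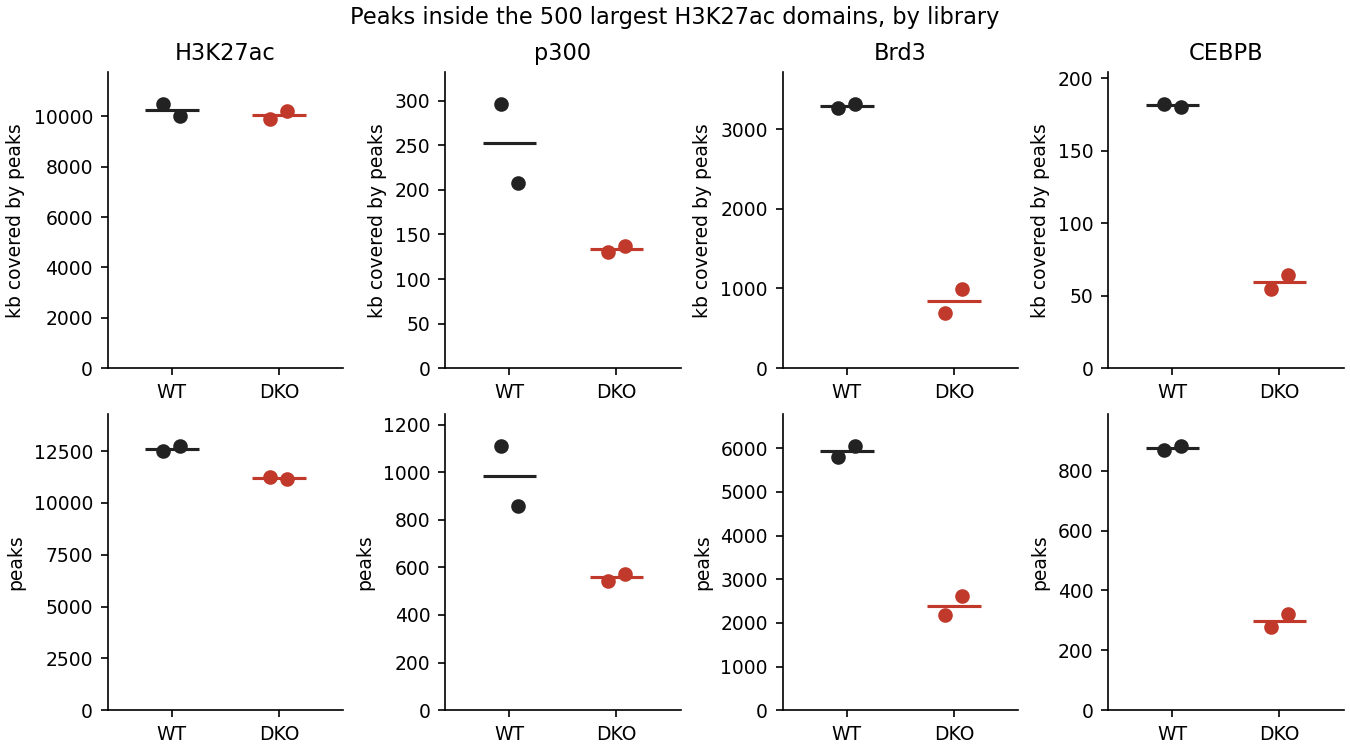
Kilobases covered by peaks (top) and number of peaks (bottom) within the 500 largest H3K27ac domains for 4 antibodies in WT and DKO MEFs, on linear axes from 0. Each point is 1 library and each bar the mean of the 2 replicates of a genotype. The WT and DKO libraries overlap for H3K27ac coverage and are apart for Brd3, with 3267 and 3314 kb in WT against 692 and 991 kb in DKO cells.

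Brd3, the reader of acetylated histones, covered far less of the domains in DKO than in WT cells. WT libraries covered 3267 and 3314 kb (mean 3291 ± 33.9 kb, SD, n = 2) and DKO libraries 692 and 991 kb (842 ± 211 kb), 25.6% of the WT mean. Every one of the 500 domains had a Brd3 peak in both WT libraries. Of these, 420 had one in both DKO libraries, 52 in 1 of them and 28 (5.60%) in neither. Over all 10333 domains with a Brd3 peak in both WT libraries, 36.6% had one in neither DKO library. Large domains hold more peaks to lose, with a median of 10 Brd3 peaks in each WT library, so these shares are not alike. Counted by site, the shares called in neither DKO library were 50.2% in the domains and 51.9% over all autosomes. In all 500 domains both DKO libraries covered fewer base pairs than both WT libraries, as they did in 76.4% of all domains with a Brd3 peak, and in none did they cover more (0.0543% of all). In number of peaks they lay below in 461 domains (51.9% of all) and above in 5 (0.644% of all).

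In the test over all domains, 473 of the 500 were called lower in DKO cells and 0 higher, against 67.2% lower of the 10523 domains tested (limma on log2(covered bp + 200), 2 libraries per genotype, two-sided, Benjamini-Hochberg adjusted p below 0.05). No domain of the 500 was higher at an unadjusted p below 0.05 either, and the single higher call among all domains was 0.0095% of them. All 500 domains passed the filter, 28 of them through WT coverage alone since they had no Brd3 peak in either DKO library. The 27 domains not called also had negative log2 changes, among them Acta2 and Serpinh1. The median log2 change was -2.09 in the 500 domains and -1.42 in all tested domains. That order turned with a pseudocount of 50 bp in place of 200 bp, with -2.27 in the 500 domains and -2.41 in all. The depth differed in the same direction, and with the libraries thinned to the lowest background 467 of the 500 (93.4%) were called lower, against 62.7% of all 10044 domains tested. When the same number of strongest peaks was taken from every library, 0 of 467 domains were called (and 0 of all 6441 tested), with 259 lower at an unadjusted p below 0.05 and a median of -1.08. With peak numbers in place of base pairs 204 of 500 (40.8%) were called lower, against 41.0% of all domains. Without WT replicate 1 or WT replicate 2 the calls numbered 109 (21.8%) and 103 (20.6%), against 42.5% of all domains each time, so that the order of the shares turned.

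Among the largest called falls were domains with no or almost no Brd3 peak left in DKO cells. The Fgf7 domain had 6057 and 6063 bp in WT against 0 and 192 bp in DKO (log2 change -4.48 ± 0.40, SE, limma adjusted p 0.00687). A domain 19174 bp from the start of Prelp, a gene for a matrix proteoglycan, had 2903 and 3708 bp in WT cells and no Brd3 peak in either DKO library. Where both libraries of a genotype are at 0, the fitted change and its error rest on the pseudocount, and neither is given here.

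The domain with the most Brd3 left in DKO cells was the third largest acetylated domain, at Vmp1 and Mir21. Vmp1 encodes a membrane protein of autophagy, and Mir21 is a microRNA gene at its 3′ end. The domain, chr11:86380375-86470821, was covered by Brd3 peaks over 48764 and 51231 bp in WT and over 21641 and 27653 bp in DKO cells (log2 change -1.02 ± 0.20, SE, limma adjusted p 0.0215). The number of Brd3 peaks went the other way, from 38 and 38 to 55 and 50, and the mean width of a peak was 1316 bp in WT against 469 bp in DKO cells. Tested on peak numbers, Brd3 in this domain was called higher in DKO cells (log2 change 0.46 ± 0.06, SE, limma adjusted p 0.0356). More peaks and fewer covered base pairs in both DKO libraries were found in 5 of the 500 domains. The second domain by DKO coverage, at rank 71 and 182349 bp from the start of Thbs1 (thrombospondin 1), had 32339 and 29859 bp in WT against 8438 and 13745 bp in DKO cells (-1.51 ± 0.30, adjusted p 0.0231, and 0.0745 with stitching within 5000 bp).

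**Figure D2:**
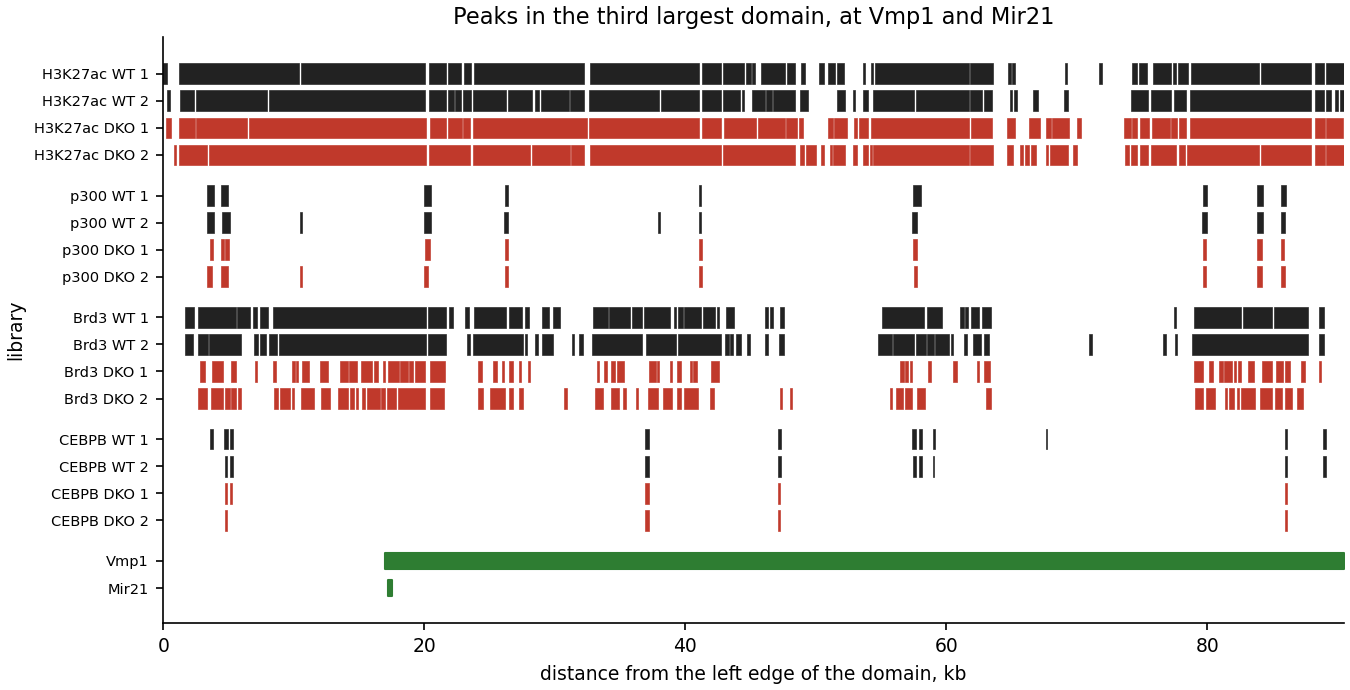
Map of the third largest H3K27ac domain, to scale, with the distance from its left edge in kb on the x axis and 1 row per library, WT in black and DKO in red, above the gene Vmp1 and the microRNA gene Mir21. Each block is a peak. Brd3 blocks cover 48764 and 51231 bp in WT and are broken into 55 and 50 shorter blocks in DKO cells, while H3K27ac blocks fill much of the domain in all 4 libraries and most p300 blocks recur in all 4.

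CEBPB, the C/EBP factor, covered 182 and 181 kb of the domains in WT and 54.8 and 64.1 kb in DKO cells, 32.8% of the WT mean. Its peaks numbered 870 and 883 in WT against 277 and 321 in DKO libraries. The replicates of a genotype lay close together and the genotypes far apart. A peak was present in both WT libraries in 357 domains, of which 195 had one in both DKO libraries, 31 in 1 and 131 (36.7%) in neither. Over all 3870 domains with a CEBPB peak in both WT libraries, 45.4% had one in neither DKO library. Counted by site, the shares called in neither were 55.9% in the domains and 55.3% over all autosomes. No domain with a CEBPB peak in both DKO libraries lacked one in WT cells.

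Of the 500 domains, 305 passed the filter of a mean of 100 covered bp over the 4 libraries, 93 fell below it and 102 had no CEBPB peak. Among the 305, limma called 201 (65.9%) lower in DKO cells and 0 higher, and 0 were higher at an unadjusted p below 0.05. Over all 2691 domains tested, 49.2% were called lower and 0.223% higher. As many as 81 of the 305 passed through WT coverage alone, so their share is not evidence about the 500 domains as a whole. Taking the same number of strongest peaks from each library left 60 lower and 5 higher calls among 213 domains (28.2% lower, against 26.5% of all 1792 domains tested that way). Without a filter both DKO libraries lay below both WT libraries in 351 of the 398 domains with a CEBPB peak (88.2%) and above in 1 (0.251%), against 73.1% and 1.25% of all domains with such a peak. In number of peaks they lay below in 265 (45.7% of all) and above in 0 (0.311% of all).

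The 3 largest called CEBPB falls included 2 domains left with no CEBPB peak. The domain at Egfr, the epidermal growth factor receptor gene, had 1318 and 1185 bp in WT and no CEBPB peak in either DKO library. Its single p300 peak was called in all 4 libraries with 159 and 180 bp in WT against 185 and 183 bp in DKO cells. The domain with the starts of Pigc and 4930558K02Rik, which also overlaps the dynamin gene Dnm3, had 943 and 1002 bp against none. Both passed the filter through WT coverage alone, and the calls add nothing to the absence of the peaks. A domain 12066 bp from the start of Haao had 1533 and 1467 bp against 141 and 151 bp (log2 change -2.30 ± 0.05, SE, limma adjusted p 0.00109, and -0.60 with adjusted p 0.203 with stitching within 5000 bp). In DKO cells the most CEBPB coverage was left in a domain 286794 bp from the start of Actbl2, with 2199 and 1938 bp against 995 and 1056 bp (-0.89 ± 0.08, adjusted p 0.00558), followed by the Vmp1 and Mir21 domain with 2303 and 1859 bp against 960 and 829 bp (-1.06 ± 0.14, adjusted p 0.0122). The fall in the Vmp1 and Mir21 domain did not pass with peak numbers (adjusted p 0.0594) or without WT replicate 1 (0.0951), WT replicate 2 (0.0716) or DKO replicate 2 (0.0546), and with the same number of strongest peaks from each library it was -0.08 (adjusted p 0.439).

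p300, the acetyltransferase, covered 296 and 208 kb of the domains in WT and 130 and 137 kb in DKO cells, 53.0% of the WT mean. Peaks numbered 1110 and 856 in WT against 543 and 573 in DKO libraries. The WT replicates differed from each other by more than the DKO replicates did, in the order of their depth. A peak was present in both WT libraries in 366 domains, of which 252 had one in both DKO libraries, 63 in 1 and 51 (13.9%) in neither. Over all 2770 such domains 29.0% had one in neither. Counted by site, the shares called in neither were 26.7% in the domains and 33.6% over all autosomes.

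The per-domain test of p300 gave few calls, and they depended on the settings. Of the 500 domains, 366 passed the filter, 62 fell below it and 72 had no p300 peak, and 38 of the 366 had passed through WT coverage alone. limma called 17 of the 366 (4.64%) lower and 0 higher, against 8.96% lower and 0.115% higher of 2612 domains tested. At an unadjusted p below 0.05, 110 were lower and 0 higher, and 344 of 366 log2 changes were negative. The count of 17 became 0 under 7 of 18 other settings and without either DKO replicate, 44 (12.0%, against 18.3% of all tested domains) without WT replicate 1 and 65 (17.8%, against 22.1%) without WT replicate 2, so no single domain is put forward as changed. Both DKO libraries lay below both WT libraries in 256 of the 428 domains with a p300 peak (59.8%, against 40.4% of all domains with such a peak) and above in 4 (0.935%, against 2.02%). In number of peaks they lay below in 142 (22.3% of all) and above in 2 (0.446% of all).

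The 3 domains that the rule names for p300 had no p300 peak in DKO cells and passed the filter through WT coverage alone, so only their coverage is given. At Pigc and 4930558K02Rik the values were 1667 and 1113 bp in WT against 0 and 0 bp in DKO cells. At Pde4d, a cyclic AMP phosphodiesterase gene, they were 1090 and 595 bp against 0 and 0 bp, and in a domain within Trio, a guanine nucleotide exchange factor gene, 682 and 445 bp against 0 and 0 bp. The most p300 coverage in DKO cells lay in the Vmp1 and Mir21 domain, with 3738 and 4010 bp in WT against 2755 and 2967 bp in DKO cells (log2 change -0.41 ± 0.16, SE, limma adjusted p 0.23), and in the domain far from Actbl2, with 3773 and 2897 bp against 2564 and 2233 bp (-0.44 ± 0.21, adjusted p 0.308). Neither difference passed the test.

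**Figure D3:**
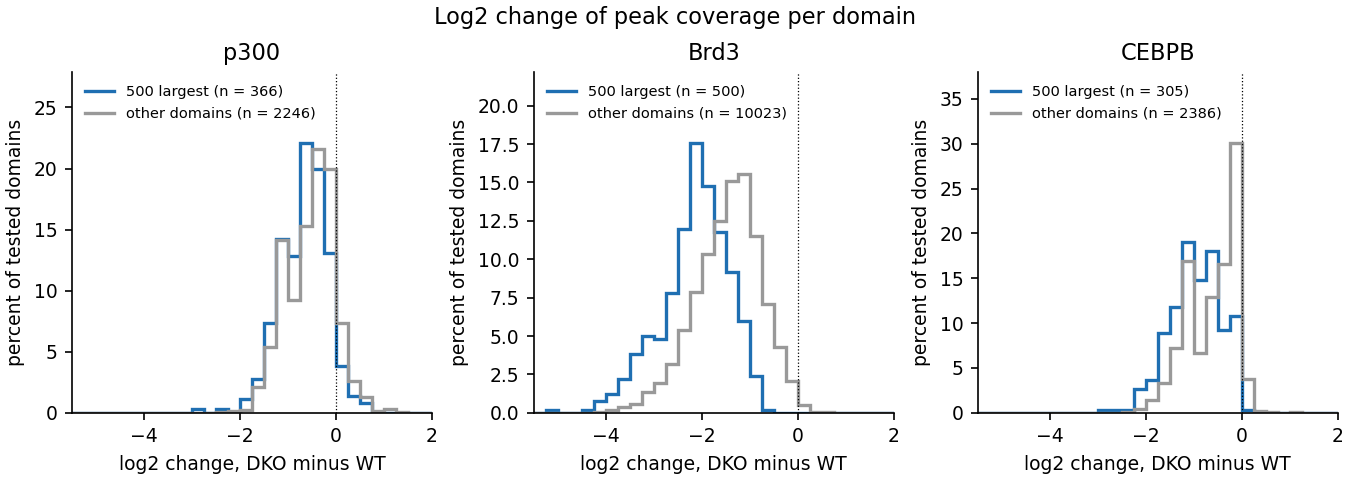
Distribution of the log2 change of covered base pairs, DKO minus WT on the log2(covered bp + 200) scale, for p300, Brd3 and CEBPB in steps of 0.25. Blue lines are the domains of the 500 that passed the filter (366, 500 and 305), grey lines the other tested domains, as percent of each set. All 3 sets of the 500 lie mostly below 0, with medians of -0.60, -2.09 and -0.95.

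Of the 10 largest domains, 9 are described here. They were, in order, at Cald1 (the actin-binding caldesmon), the Hoxb cluster, Vmp1 and Mir21, Myh9 (a non-muscle myosin heavy chain), the Hoxa cluster, Col5a1 (a fibrillar collagen), the Hoxc cluster, Actn4 and Actn1 (both alpha-actinins). H3K27ac in the Cald1 domain, chr6:34528604-34731604, covered 106901 and 105176 bp in WT against 95886 and 100586 bp in DKO cells. These 9 were all called lower for Brd3, with log2 changes from -2.61 at the Hoxa cluster to -1.02 at Vmp1 and limma adjusted p from 0.00809 to 0.0215. With peak numbers in place of base pairs the Hoxa (-1.80, adjusted p 0.0642), Col5a1 (-0.82, adjusted p 0.0751) and Hoxc (-0.69, adjusted p 0.181) domains were not called and the Vmp1 domain was called higher. None of the 9 was called when the same number of strongest peaks was taken from every library, or without WT replicate 1 or WT replicate 2, and the Vmp1 domain was not called without DKO replicate 1 (adjusted p 0.054).

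At Cald1, Brd3 peaks covered 20305 and 18180 bp in WT against 2534 and 4993 bp in DKO cells. CEBPB there covered 1597 and 1356 bp against 199 and 374 bp, and p300 1308 and 936 bp against 453 and 293 bp, so all 3 had DKO values below WT values. The Hox clusters, which encode the transcription factors of body axis position, held few p300 and CEBPB peaks. The Hoxb domain had 33043 and 33063 bp of Brd3 in WT against 5604 and 8601 bp in DKO cells, but a single p300 peak in each WT library and none in DKO cells. At both CEBPB sites of the Hoxa domain all 4 libraries had a peak, with 452 and 450 bp in WT against 376 and 364 bp in DKO cells (log2 change -0.19 ± 0.04, SE, limma adjusted p 0.0341, called lower), while Brd3 went from 31220 and 29151 bp to 3232 and 7017 bp. The CEBPB call there was lost with the replicate block (adjusted p 0.143) and without any 1 library (adjusted p 0.0776 to 0.124), and the peak numbers did not differ, at 2 in every library. The Hoxc domain had no p300 and no CEBPB peak in any library, and 25471 and 29108 bp of Brd3 in WT against 6888 and 9639 bp in DKO cells. In the Actn1 domain, too, no library had a CEBPB peak.

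**Figure D4:**
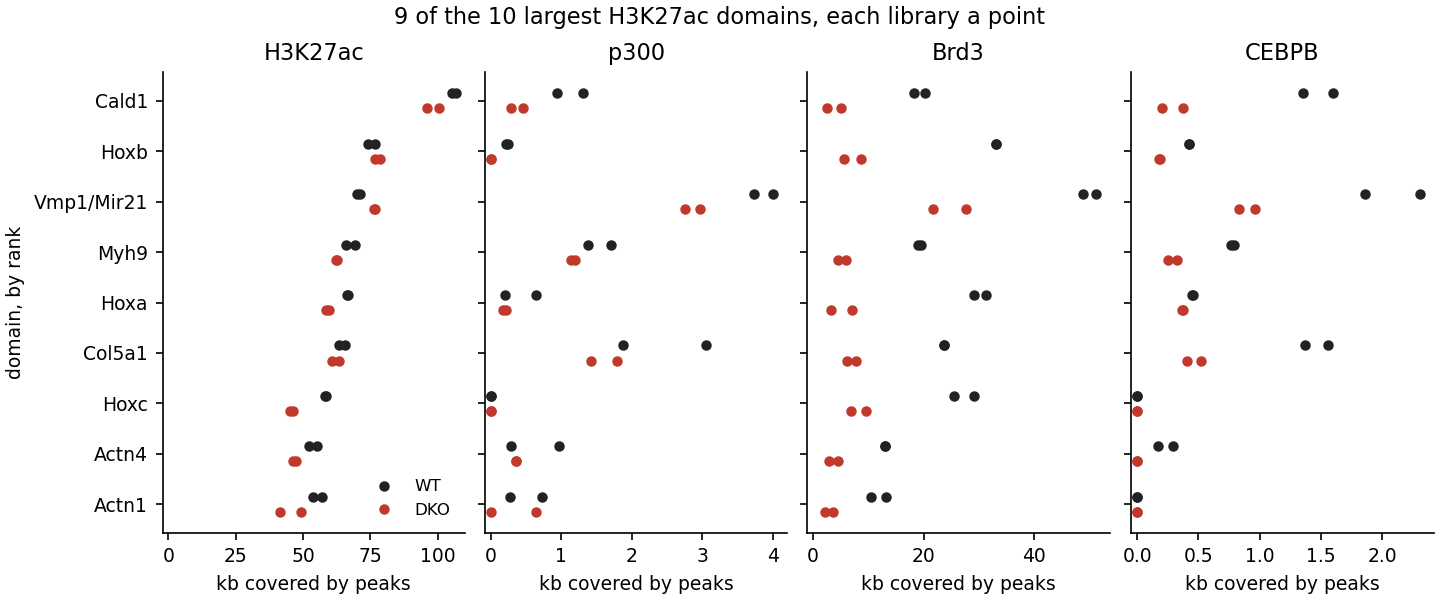
Kilobases covered by peaks of each antibody in 9 of the 10 largest H3K27ac domains, named by a gene they hold, each point 1 library, WT in black and DKO in red. Brd3 points of DKO cells lie left of those of WT cells in all 9 domains, and the Hoxc row has p300 and CEBPB at 0 in all libraries.

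Domains of the fibroblast marker genes were no exception. The 9 domains with a fibroblast marker were all called lower for Brd3, with a median log2 change of -1.86. Among all 500 domains 94.6% were called lower with a median of -2.09, and among all tested domains 67.2% with a median of -1.42. For p300, 7 of them passed the filter and 0 were called (8.96% of all tested domains were called lower). For CEBPB, 5 passed and 3 were called lower (49.2% of all), of which the Fn1 domain, with 236 and 211 bp in WT against 0 and 0 bp, had passed through WT coverage alone. The Col1a1 domain had 20932 and 20896 bp of Brd3 in WT against 6208 and 7791 bp in DKO cells (log2 change -1.56 ± 0.19, SE, limma adjusted p 0.0096). Col3a1 had 5021 and 5123 bp against 525 and 0 bp (-3.79 ± 0.72, adjusted p 0.0209, and 0.0599 with a pseudocount of 50 bp), and Vim 7201 and 7304 bp against 1355 and 2049 bp (-1.99 ± 0.25, adjusted p 0.0101). The smallest change among these 9 was at Prrx1, with 10823 and 11457 bp against 4890 and 5965 bp (-1.02 ± 0.18, adjusted p 0.0182). Without promoter peaks the change at Prrx1 was -0.35 (adjusted p 0.299) and with peak numbers -0.85 (adjusted p 0.22), neither of which passed.

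Of the 16 domains with starts of extracellular matrix genes 14 were called lower for Brd3, as were 14 of 15 with actin cytoskeleton genes, all 11 with TGF-beta and YAP response genes, all 7 with mesenchymal transcription factor genes, all 4 with AP-1 genes, all 3 with growth factor genes and all 3 with Hox genes. The 2 matrix domains not called were that of Serpinh1 and a second Col5a1 domain at rank 412, since Col5a1 has annotated starts in 2 domains. These shares are to be read against the 94.6% of all 500 domains. For CEBPB, 9 of 10 tested domains with TGF-beta and YAP response genes were called lower, 5 of 8 with actin cytoskeleton genes and 4 of 9 with extracellular matrix genes, to be read against the 65.9% of tested members and the 49.2% of all tested domains. Of these lower calls, 1, 2 and 2 had no CEBPB peak in either DKO library and passed the filter through WT coverage alone. For p300 the 1 lower call in all these lists was the Hoxb domain, with 218 and 239 bp in WT against 0 and 0 bp, which passed the filter through WT coverage alone and is not put forward as a change. At Ctgf, a YAP target and matrix-associated growth factor gene, Brd3 covered 15301 and 17168 bp in WT against 4489 and 7571 bp in DKO cells (log2 change -1.44 ± 0.32, SE, limma adjusted p 0.028), and its 3 p300 peaks were called in all 4 libraries. At Cyr61, of the same gene family, Brd3 covered 15914 and 18199 bp against 5019 and 6689 bp (-1.52 ± 0.22, adjusted p 0.0127). Acta2, smooth muscle actin, had 3710 and 4398 bp in WT against 0 and 953 bp in DKO cells and did not pass (-3.14 ± 0.98, adjusted p 0.0572), its DKO libraries lying far apart.

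At Fgf7 all 4 measures were lower in both DKO than in both WT libraries. H3K27ac differed by -0.97 on the log2 scale, Brd3 was left with 1 peak in 1 DKO library, the 3 CEBPB peaks of each WT library (604 and 603 bp) were in neither DKO list, and the same held for the 1 p300 peak (270 and 165 bp). Across the domains, Spearman correlations between the log2 changes of the 4 antibodies were 0.05 for H3K27ac and Brd3 (n = 500 domains), 0.06 for H3K27ac and CEBPB (n = 305), 0.09 for H3K27ac and p300 (n = 366), 0.08 for Brd3 and CEBPB (n = 305) and 0.10 for p300 and CEBPB (n = 242). In the tercile of domains with the lowest H3K27ac difference (median -0.22) the median Brd3 change was -2.22, in the middle tercile -2.00, and in the tercile with the highest (median 0.14) -2.10. Over the same 3 terciles the medians were -0.67, -0.64 and -0.56 for p300 and -1.05, -0.92 and -0.91 for CEBPB. The correlation between Brd3 and p300 changes was 0.15 (n = 366). The domains of a correlation share their 4 libraries per antibody, so the values are descriptions.

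Single sites within the domains were called less often in DKO cells, Brd3 and CEBPB sites most of all. Of 3702 Brd3 sites called in both WT libraries, 1858 (50.2%, and 51.9% over all autosomal Brd3 sites) were called in neither DKO library. At promoter sites, within 1000 bp of a protein-coding start, 36.9% of 965 were not called, and at distal sites 54.9% of 2737. Outside the domains the shares were 39.7% of 9392 promoter and 68.8% of 7193 distal Brd3 sites. For CEBPB 415 of 743 sites (55.9%, and 55.3% over all sites) were called in no DKO library, with 54.7% of 75 promoter and 56.0% of 668 distal sites. For p300 188 of 705 sites (26.7%, and 33.6% over all sites) were called in no DKO library, and of 7437 H3K27ac sites 735 (9.88%, and 11.3% over all sites). Called in both DKO libraries were 5943 of the 7437 H3K27ac sites (79.9%, and 77.9% over all sites), 368 p300 sites (52.2%, and 41.8%), 1094 Brd3 sites (29.6%, and 26.5%) and 259 CEBPB sites (34.9%, and 34.7%). Sites shared by the DKO libraries and absent from both WT lists numbered 357 for H3K27ac, 9 for p300, 4 for Brd3 and 0 for CEBPB, and over all autosomes 4483, 55, 17 and 47. The difference between promoter and distal sites was not tested. A site counted as called in DKO cells if any DKO peak overlapped it, however short. These shares may therefore depend on the width of a site, which was not examined.

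Sites that all 4 libraries called also had lower median fold enrichment in DKO cells. At the 259 such CEBPB sites of the domains the median fold enrichment was 14.6 and 16.2 in WT against 7.81 and 8.21 in DKO cells, and both DKO values lay below both WT values at 226 sites (87.3%, and 76.8% of 4111 sites over all autosomes) and above at 9 (3.47%, and 7.81%). At 1094 Brd3 sites the medians were 8.23 and 8.04 in WT against 5.95 and 6.00 in DKO cells, with DKO below WT at 679 (62.1%, and 57.5% of all) and above at 50 (4.57%, and 5.83% of all). At 368 p300 sites they were 9.39 and 8.85 against 7.64 and 7.77, with DKO below WT at 170 (46.2%, and 41.1% of all) and above at 48 (13.0%, and 14.3% of all). At 5943 H3K27ac sites they were 8.55 and 8.41 against 7.94 and 7.92, with DKO below at 31.5% (33% of all) and above at 21.6% of sites (20.7% of all). These medians are descriptions and were neither tested nor adjusted for depth.

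Most p300, Brd3 and CEBPB sites of the domains lay on acetylated sequence in both genotypes, which the choice of the domains on WT H3K27ac largely fixes for WT cells. Of the sites called in both WT libraries, 98.3% for Brd3, 93.6% for p300 and 81.2% for CEBPB overlapped an H3K27ac peak in both WT libraries. The same sites overlapped an H3K27ac peak in both DKO libraries in 97.9%, 96.0% and 81.8% of cases. Outside the domains, 95.1% of the Brd3, 64.7% of the p300 and 28.0% of the CEBPB sites lay on WT H3K27ac. In WT cells 277 of the 500 domains had peaks of all 3 factors in both libraries and 54 had Brd3 alone, whereas in DKO cells 108 had all 3 and 125 Brd3 alone on the same count. In 39 domains no factor had a peak in both DKO libraries, and in 10 of these neither DKO library had a peak of any of the 3. These counts were made for the 500 domains only, so they do not set these apart from other domains.

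The share of coverage left in DKO cells differed between size classes of the domains, in no steady order for any antibody. Brd3 coverage in DKO was 26.5% of WT in domains of rank 1 to 100 and 23.5% in those of rank 401 to 500, and 21.8% in those of rank 501 to 1000. For p300 these shares were 54.0%, 58.7% and 50.3%, and for CEBPB 30.7%, 26.0% and 38.5%. CEBPB reached 41.9% in ranks 201 to 300. Over ranks 5001 to 20039 the shares were 22.9% for Brd3, 44.8% for p300 and 38.6% for CEBPB, and that of H3K27ac was 86.2%. The differences between size classes were not tested. The 2 DKO libraries of Brd3 differed too, with 692 and 991 kb covered in the 500 domains. Peaks in the domains made up 18.8% and 18.6% of all Brd3 peaks in WT and 24.6% and 22.9% in DKO libraries, and 15.3% and 16.0% against 18.5% and 17.4% of all p300 peaks, but 6.26% and 6.14% against 5.84% and 6.21% of all CEBPB peaks.

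**Figure D5:**
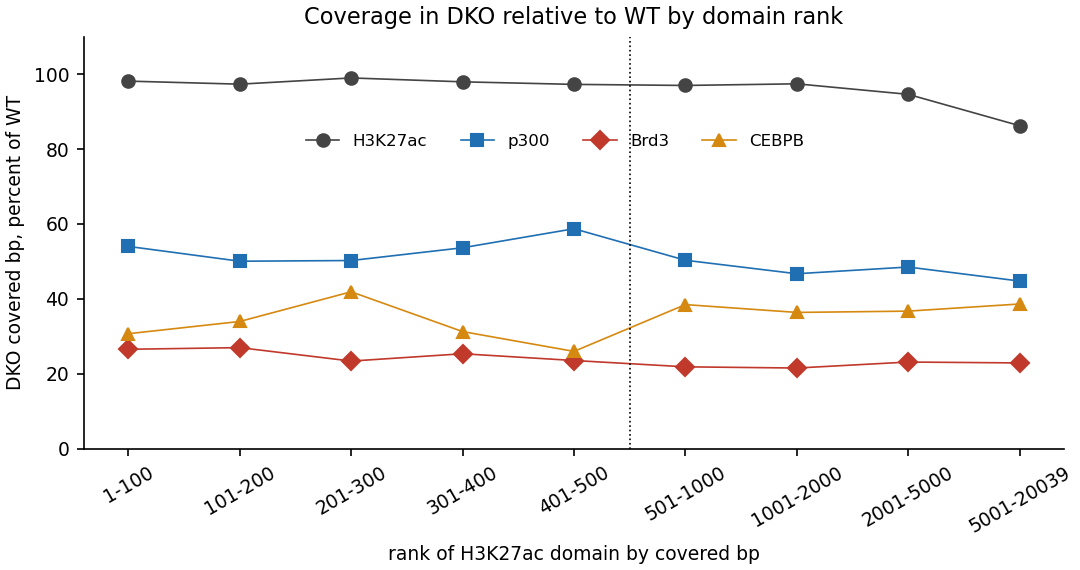
Base pairs covered in DKO libraries as percent of those in WT libraries, mean of 2 libraries each, for domains ranked by acetylated base pairs, with the 500 largest left of the dotted line. H3K27ac stays between 97.3% and 99.0% in the 5 classes of the 500, and Brd3 is 26.5% in the first and 23.5% in the last of them.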

How the data were processed

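Per the labels, libraries were trimmed with cutadapt 1.16, mapped to mm9 with BWA and peaks were called with MACS2 2.1.1.20160309. The authors marked duplicates, dropped blacklisted regions and called narrow peaks for each library against input DNA. Each deposited peak has a score, a fold enrichment, and −log10 p and −log10 q, all by the authors, and replicates were not pooled. Where pileups could be solved, fold enrichment was the ratio of pileup over background at the summit, with a constant added to both. No read counts were used. Columns of positions gave covered base pairs, the measure tested.

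Peaks were read with Python 3.11.15 and pandas 2.3.3, genes from GENCODE vM1, and sequences with pysam 0.24.0. Base pairs covered per domain were compared with limma 3.58.1 in R 4.3.3, without a replicate block, as log2(bp + 200), over domains with a mean of at least 100 bp, and adjusted over all domains tested. The fit was tested on simulated data. Domains named are the 10 largest, those on either side of the limit, the 3 largest called falls and rises (there were no called rises) and the 2 with most DKO coverage per antibody, and those of listed genes, with a few named by this rule not reported here. The domains, gene lists and tests were chosen with earlier results of these data known. H3K27me3, histone H1, embryonic stem and B cell lists were used only for the closing counts, and expression was not analysed here.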

Additional observations from a re-analysis of the deposited data

How the results depend on the processing

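The number of domains called lower rests on 2 libraries per genotype and on how peaks were counted. For p300, the 17 calls became 63 with peak numbers (15.9%, against 24.2% of all tested domains), 29 with a pseudocount of 50 bp (7.92% against 14.3%), 26 with a fold enrichment of at least 4 (7.10% against 11.4%) and 1 with a mean coverage of at least 300 bp (0.412% against 0.353%). They became 0 with a pseudocount of 500 bp, no filter, the same number of top peaks, domains defined in DKO libraries, a trended or a robust prior, and the replicate block, with between 38 and 123 domains lower at an unadjusted p below 0.05 in these fits. Without single replicates the p300 calls ran from 0 to 65. The cause was not tested. For Brd3, the 473 calls became 204 with peak numbers and 0 with the same number of top peaks, 259 being lower at an unadjusted p below 0.05, and ran from 103 to 495 without single replicates. For CEBPB, the 201 calls became 130 with a mean coverage of at least 300 bp, where 159 of the 500 were tested, 60 with the same number of top peaks, and 143 to 174 without single replicates. The other settings, 7 of 18 for p300, 16 of 18 for Brd3 and 15 of 17 for CEBPB, left the count within 1.5 times. H3K27ac coverage in DKO was 98.0% of WT, 106% with domains defined in DKO libraries, and 95.8% to 100.3% without single replicates. These H3K27ac settings were chosen after seeing the data. Among the named domains, the Vmp1 and Mir21 domain reversed with peak numbers, to 0.46 for Brd3, a called rise with adjusted p 0.0356, and to 0.0066 ± 0.13 (SE) for p300, with adjusted p 1.

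The labels give both genotypes replicates 1 and 2 without saying that these are paired. With the replicate block limma called 0, 484 and 188 domains lower for p300, Brd3 and CEBPB, against 0%, 70.3% and 41.3% of all tested domains. Deviations of same-numbered libraries had correlations of 0.01, -0.01 and 0.01 over 2612, 10523 and 2691 domains. CEBPB could not be thinned to the lowest background, because its pileups could not be solved. Domains chosen by length shared 67.4%, by stitching within 5000 bp 73.6%, and by DKO libraries 83.0% of the 500.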

Other observations

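Other factors of the series were also found in the fibroblast domains. In embryonic stem cells, peaks of the insulator protein CTCF in these 500 domains numbered 1275 and 1290 in WT against 1368 and 1386 in DKO libraries. They were 2.12% to 2.21% of all autosomal CTCF peaks. Peaks of the pluripotency factor Nanog numbered 1462 and 1558 in WT against 1884 and 1910 in DKO libraries, 2.87% to 3.08% of all. The domains span 1.05% of the autosomes. In resting B cells, peaks of Ikaros, a lymphoid zinc finger factor, numbered 595 and 687 in WT against 358 and 352 in DKO libraries, 6.43% to 7.47% of all. Peaks of Ets1 numbered 232 and 232 in WT against 58 and 47 in DKO libraries, 4.37% to 5.21% of all. The domains were defined in another cell type, and peaks in those cells were counted whether or not they were acetylated there.

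In MEFs, the lists of H3K27me3, the mark of Polycomb repression, held 0 and 0 peaks in the domains in WT and 1 and 0 in DKO libraries, and those of histone H1, the linker histone, 1 and 0 against 0 and 1. These lists are short, with 117 to 553 H3K27me3 and 78 to 97 H1 peaks over all autosomes, so the counts say little about the domains.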
